A study of Rattus norvegicus with 4 samples.

Results

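The apoptosis and growth arrest genes described here are 9 named rat genes: the growth arrest and DNA damage genes Gadd45a, Gadd45b and Gadd45g, the TNF receptor family genes Tnfrsf12a and Fas, the cyclin-dependent kinase inhibitor gene Cdkn1a, and the BCL2 family genes Bax, Bcl2l1 and Bcl2l11. The members were chosen by symbol, and every probe set (a group of short probes that reads 1 transcript) annotated to a listed symbol was taken. That gave 14 of 15866 probe sets at day 1 and 2 of 15276 at day 3, controls left out. Of the 9 genes, 8 had a probe set of their own on the day 1 arrays and 1, Fas, on the day 3 arrays.

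The arrays measured rat cochlear lateral wall after 3-nitropropionic acid (3-NP), which blocks mitochondrial succinate dehydrogenase, or after saline. Female Sprague-Dawley rats of 8 to 10 weeks and 180 to 210 g were given 300 mM 3-NP in saline, or saline alone, through the left round window niche. In every group the right cochlea was destroyed surgically, and the tissue was harvested 1 or 3 days later. There were 4 groups (saline at day 1, 3-NP at day 1, saline at day 3 and 3-NP at day 3) with 1 array each, so no difference below has a replicate check, and no test was possible.

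In the labels the tissue is named as the apical end of the basal turn in some fields, and as the second turn with the stria vascularis left out in another. How many animals contributed to an array was not stated in the labels. Each day used its own array design, so levels were not compared between days. In such bulk tissue, fewer cells of a type and less RNA per cell cannot be told apart.

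The GADD45 proteins are small stress sensors that bind the kinase MAP3K4 upstream of p38 and JNK, the sliding clamp PCNA and the mitotic kinase CDK1, and so tie stress to growth arrest or cell death. Cdkn1a encodes p21, which holds cells in G1 and is a classic target of p53. Fas and Tnfrsf12a encode surface receptors: Fas carries a death domain and recruits FADD and caspase 8, whereas the product of Tnfrsf12a, Fn14, has none and signals from the ligand TWEAK through TRAF adaptors. In the mitochondrial arm, BAX opens the outer membrane, BIM (from Bcl2l11) helps to activate it, and BCL-XL (from Bcl2l1) holds both in check.

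The promoters of the 5 members whose signals were at least 2-fold higher after 3-NP at day 1 are shown because these genes differed together. Each line gives the 250 bases before the transcript start in RefSeq, on the GRCr8 assembly, 5′ to 3′ in the direction of the gene. Capitals mark the motifs that were searched for on both strands. Gadd45a lies at chr4:97486800-97487049 on the minus strand, Gadd45b at chr7:9430719-9430968 (minus), Gadd45g at chr17:13530352-13530601 (minus), Tnfrsf12a at chr10:13213649-13213898 (minus) and Cdkn1a at chr20:7150682-7150931 (plus).
Gadd45a: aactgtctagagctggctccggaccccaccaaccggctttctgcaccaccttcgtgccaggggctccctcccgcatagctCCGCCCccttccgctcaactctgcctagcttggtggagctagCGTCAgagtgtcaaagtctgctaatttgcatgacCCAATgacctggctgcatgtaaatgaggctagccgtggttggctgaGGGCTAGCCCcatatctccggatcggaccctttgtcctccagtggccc
Gadd45b: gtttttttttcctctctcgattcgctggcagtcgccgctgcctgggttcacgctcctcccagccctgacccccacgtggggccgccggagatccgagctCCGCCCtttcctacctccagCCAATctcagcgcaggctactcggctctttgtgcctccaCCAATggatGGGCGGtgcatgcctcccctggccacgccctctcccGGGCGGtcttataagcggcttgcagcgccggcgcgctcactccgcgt
Gadd45g: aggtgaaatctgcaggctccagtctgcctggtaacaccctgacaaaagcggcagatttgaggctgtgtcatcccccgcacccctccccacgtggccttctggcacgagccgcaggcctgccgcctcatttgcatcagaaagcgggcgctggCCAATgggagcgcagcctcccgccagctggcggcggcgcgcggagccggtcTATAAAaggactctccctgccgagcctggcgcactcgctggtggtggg
Tnfrsf12a: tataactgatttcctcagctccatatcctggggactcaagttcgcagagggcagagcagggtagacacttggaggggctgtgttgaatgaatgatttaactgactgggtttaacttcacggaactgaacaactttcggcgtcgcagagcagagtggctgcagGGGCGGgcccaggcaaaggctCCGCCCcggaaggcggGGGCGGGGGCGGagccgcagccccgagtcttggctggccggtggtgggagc
Cdkn1a: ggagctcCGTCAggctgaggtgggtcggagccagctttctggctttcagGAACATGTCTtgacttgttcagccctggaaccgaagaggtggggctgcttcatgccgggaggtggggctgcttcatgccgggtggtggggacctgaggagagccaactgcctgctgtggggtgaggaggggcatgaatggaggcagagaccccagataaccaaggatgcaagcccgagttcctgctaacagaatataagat

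The search covered the AP-1 motif TGANTCA, the cAMP response element TGACGTCA and its half-site TGACG (which the whole element contains), the TATA box TATAAA, the GC box GGGCGG, the CCAAT box CCAAT and the forkhead motif GTAAACA. It also covered the consensus sequences of NF-kB, of a p53 half-site and of the CArG box. The Gadd45 promoters each held at least 1 CCAAT box, 2 in that of Gadd45b, a motif present in 34.0% of 33469 rat promoters of this length. A TATA box stood only in that of Gadd45g among these 5 (12.9% of all promoters), and 4 GC boxes, 2 of them adjacent, stood in that of Tnfrsf12a, 3 in that of Gadd45b and 1 in that of Gadd45a (at least 1 in 30.5%). The cAMP half-site was in the windows of Gadd45a and Cdkn1a (18.2%). A p53 half-site was in both too, GGGCTAGCCC at -48 to -39 of Gadd45a and GAACATGTCT at -201 to -192 of Cdkn1a, counted back from the start (6.64%). No AP-1 motif (6.34%), NF-kB consensus (3.54%), forkhead motif (3.21%), CArG box (1.5%) or whole cAMP response element (1.59%) was in these 5 windows. Of the members not shown, CCAAT boxes were also in windows of Bcl2l1 and Bcl2l11, and GC boxes in those of Bcl2l11 and Fas. The 5 windows shown held 58.8% to 66.0% G and C, against a median of 51.2% over all promoters. Such matches describe letters only.

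At day 1, the 3 GADD45 genes, Tnfrsf12a and Cdkn1a all had far higher signals in the 3-NP array than in the saline array, while the BCL2 family genes with a probe set of their own lay under 2-fold. The values are MAS5 signals, linear probe set intensities. Across the 6533 measured genes, log2 ratios of 3-NP over saline had a median of 0.44, so ratios are given relative to that median gene. A gene counted as measured when 1 of its probe sets reached the median signal of either array. Relative to the median gene, 5 of the 7 measured members were at least 2-fold higher (71.4%) and 0 were lower, against 7.76% and 6.47% of all measured genes. The median of the 7 was 1.83. The list was put together with earlier results of these arrays known, and Gadd45g was measured only through its 3-NP signal, so these shares describe the list and support nothing further.

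**Figure D1:**
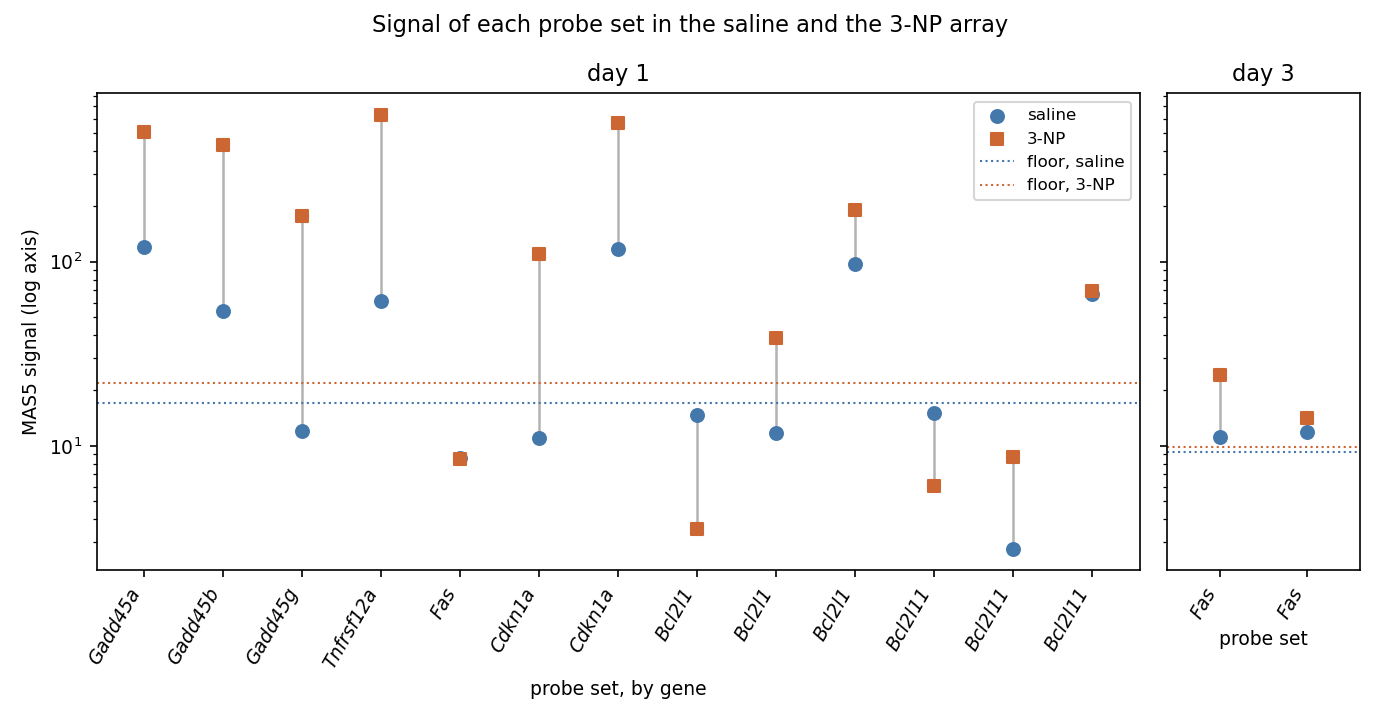
MAS5 signal (log axis) of each probe set annotated to 1 member gene, in the saline array (circles) and the 3-NP array (squares) of day 1 and day 3, with 1 array per point and dotted lines at the floor of each array. The squares of Gadd45a, Gadd45b, Gadd45g, Tnfrsf12a and Cdkn1a lie far above their circles, whereas the brightest Bcl2l11 pair nearly coincides at 67.0 and 69.4.

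Gadd45a, the member of the family classically induced by DNA damage, gave a signal of 120 with saline and 505 with 3-NP at day 1. Its log2 ratio was 1.63 relative to the median gene, a 3.10-fold difference, and 2.07 as deposited. Gadd45b, first known as a gene of myeloid differentiation and a target of NF-kB and TGF-beta signalling, had 54.3 with saline and 429 with 3-NP. That is 5.84-fold relative to the median gene, or 2.55 on the log2 scale. Gadd45g, which is induced by cytokines, had 12.1 with saline and 178 with 3-NP. The saline value lies under the floor of 17.1, the 30th percentile of that array, and below it signals were not ranked. Gadd45g was therefore at least 7.64-fold higher relative to the median gene. That bound moves with the floor, from 2.21 to 3.44 on the log2 scale between floors at the 40th and 20th percentiles. All 3 paralogs were read by 1 probe set each, and the annotation lists no second reading of any of them.

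Tnfrsf12a, the TWEAK receptor gene, which is induced by growth factors and injury, gave a signal of 61.5 with saline and 626 with 3-NP at day 1. It was 7.50-fold higher relative to the median gene, with a log2 ratio of 2.91, and 10.2-fold as deposited. Its ligand gene Tnfsf12 did not share this difference, at 102 with saline and 111 with 3-NP and a relative log2 ratio of -0.31 (0.13 as deposited). Fas, the other receptor gene of the list, was read on the day 1 arrays by 1 probe set, at 8.61 with saline and 8.43 with 3-NP. Both lie below the floor of their array (17.1 and 22.0), so no ratio was drawn for Fas at day 1. Fas was therefore not measurable at day 1 at these signals.

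Cdkn1a, the p21 gene, was read by 2 probe sets that both gave a higher signal after 3-NP. The brighter had 118 with saline and 566 with 3-NP, a relative log2 ratio of 1.83, or 3.55-fold. The dimmer had 11.1, under the floor, and 110, which makes it at least 4.73-fold higher relative to the median gene. Both readings of Cdkn1a thus lay above the median gene. The bound ran from 1.52 to 2.87 on the log2 scale over the processing settings.

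The BCL2 family members of the list showed smaller differences. Bcl2l1, which encodes the survival protein BCL-XL, had 97.6 with saline and 192 with 3-NP by its brightest probe set. Its relative log2 ratio was 0.54, under the 2-fold mark, and 0.98 as deposited, just under it. A dimmer probe set, which by its Affymetrix suffix may read several transcripts of the gene, had 11.7 with saline, under the floor, and 38.7 with 3-NP. Its bound was 0.74 relative to the median gene (0.01 to 1.29 over the processing settings), and it did not pass the filter. The remaining Bcl2l1 probe set was under the floor in both arrays, at 14.7 and 3.51.

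Bcl2l11, which encodes the death inducer BIM, had nearly the same signal in both arrays by its brightest probe set, 67.0 with saline and 69.4 with 3-NP. Relative to the median gene that is -0.39, and 0.05 as deposited, so its direction depends on the centring. Its other probe sets were under the floor in both arrays, one at 15.2 with saline and 6.02 with 3-NP and the other at 2.76 and 8.68. Bax has no probe set of its own on either design. The one probe set that lists it also lists LOC681314, another protein-coding locus in RefSeq. That shared probe set had 78.0 with saline and 212 with 3-NP, a relative log2 ratio of 1.00, which cannot be assigned to Bax and was not counted.

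The spread between probe sets of 1 gene is the only error that these arrays offer. Over 744 genes with several probe sets at day 1, the log2 ratio of a single probe set had an SD of 0.35, and that of a difference between 2 such ratios was 0.50. It covers differences between probe sets within 1 pair of arrays, not hybridisations, animals or dissections. In order of their ratios, Tnfrsf12a lay 0.36 above Gadd45b and Cdkn1a lay 0.19 above Gadd45a, gaps under that SD. Gadd45b lay 0.72 above Cdkn1a, Gadd45a lay 1.09 above Bcl2l1, and Bcl2l1 lay 0.93 above Bcl2l11, gaps above it. Gadd45g, as a bound, has no place in the order.

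**Figure D2:**
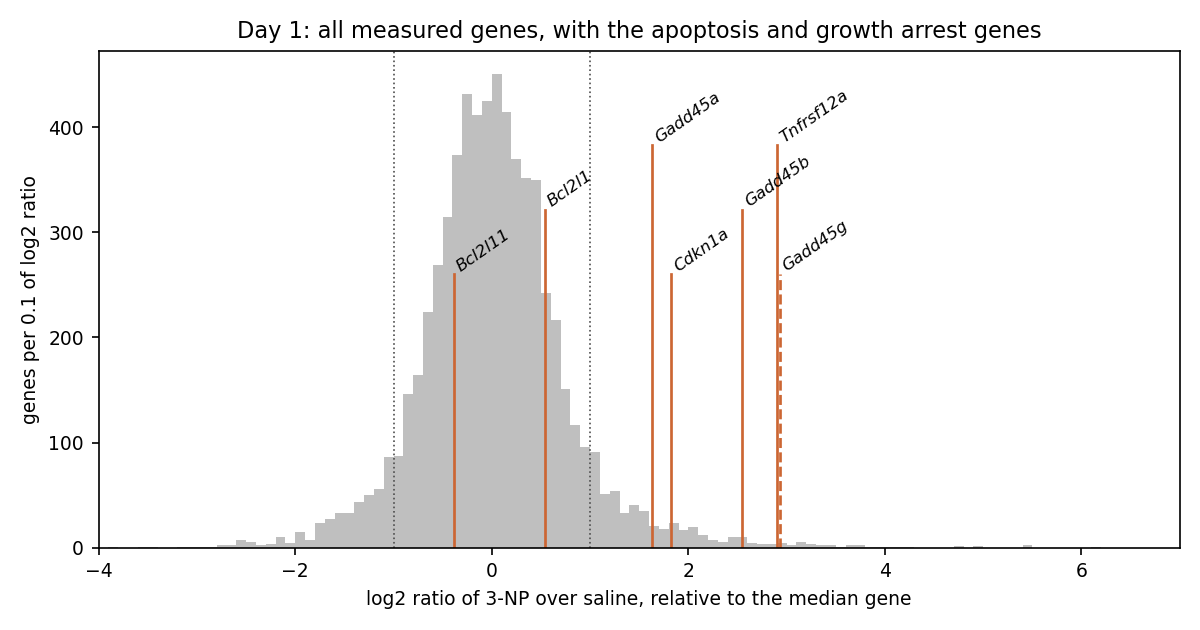
Number of genes per 0.1 of log2 ratio of 3-NP over saline at day 1, relative to the median gene, for the 6533 measured genes (grey), with a line for each of the 7 measured members and dotted lines at 2-fold. The line heights carry no value, and the dashed line of Gadd45g is a lower bound. The lines of 5 members lie to the right of the upper 2-fold mark, and those of Bcl2l1 (0.54) and Bcl2l11 (-0.39) lie between the marks.

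Among the 6465 genes above the floor in both arrays at day 1, ranked from the highest ratio, Tnfrsf12a held rank 35 and Gadd45b rank 47. Cdkn1a held rank 122 and Gadd45a rank 154, whereas Bcl2l1 was at 1169 and Bcl2l11 at 4806. The genes with the nearest ratios, over 2 arrays only, were Gpx2 (2.95) and Pvr (2.89) for Tnfrsf12a, and Irf1 and Sfn (both 2.56) for Gadd45b. For Cdkn1a they were Ppp1r15a (1.83) and Pdpn (1.82), and for Gadd45a they were Tap2 (1.65) and Cxcl14 (1.62). Of these neighbours, Pvr, Sfn, Tap2 and Cxcl14 were measured only through their 3-NP signals.

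At day 3 Fas was the only member on the array design, and its 2 probe sets differed. The one with the higher signal after 3-NP had 11.2 with saline and 24.2 with 3-NP, 2.02-fold relative to the median gene (log2 ratio 1.01). The other had 11.9 with saline and 14.2 with 3-NP, 1.12-fold, and did not pass the filter. The former passed only through its 3-NP signal, since its saline signal lay under that array's median of 18.7. Both lie not far above the floors of 9.22 and 9.85. Of all 3972 measured genes of that day, 9.21% were at least 2-fold higher and 8.18% lower, and the SD between probe sets, taken as before, was 0.47 (805 genes). The 2-fold mark was lost for Fas after lowess centring (0.89), after quantile normalization (0.98), with a floor at the 40th percentile (0.74) and with the mean over the probe sets that passed the filter (0.998). That mean holds only the Fas probe set that passed, so the value moved with the centring. Serf1 and Bace2 had the nearest ratios (both 1.01). The GADD45 genes, Tnfrsf12a, Cdkn1a and the BCL2 members were not analysed at day 3.

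Around these members, 7 lists of 142 further genes of cell death and growth arrest were examined, of which 62 were measured at day 1. Ratios and medians given for them, also in parentheses, are log2 ratios relative to the median gene. Of these, 14 were at least 2-fold higher and 6 lower (22.6% and 9.68%), with a median of 0.18, or 19 and 4 as deposited. Across all 6533 measured genes, 507 were higher (7.76%) and 423 lower (6.47%), or 1169 and 171 as deposited. At day 3, 31 genes of these lists were measured, with 5 higher (16.1%), 0 lower and a median of 0.34. Of all genes measured that day, 9.21% were higher and 8.18% lower. Among the higher genes, Ripk3, Ngfr, Gdf15, Birc3, Sfn and E2f5 at day 1 were measured only through their 3-NP signals. So were Tnfsf9 and Tp53inp1 at day 3. The lower gene Sesn1 was measured only through its saline signal at day 1. The lists were chosen with earlier results known, so these shares describe the lists and support nothing further.

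**Figure D3:**
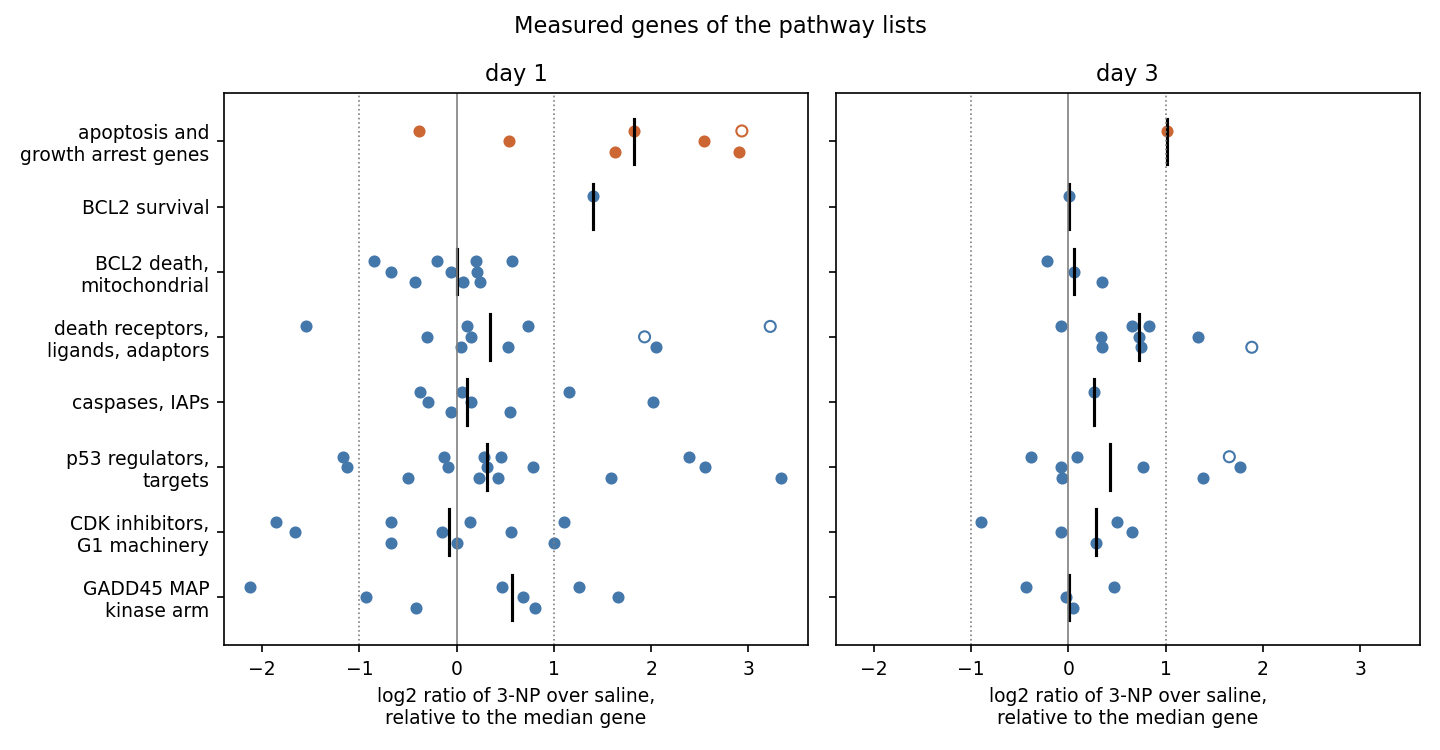
Log2 ratio of 3-NP over saline relative to the median gene for the measured members (orange) and the measured genes of 7 pathway lists (blue), at day 1 and day 3, with 1 point per gene. Open points are bounds, black bars are medians and dotted lines mark 2-fold; at day 1 the members' median of 1.83 lies to the right of the medians of the 7 lists.

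In the BCL2 family outside the members, 1 survival gene and 10 death and mitochondrial genes were measured at day 1. Mcl1, a short-lived survival gene and the only measured one of its 5-gene list, had 138 with saline and 494 with 3-NP, a relative log2 ratio of 1.40 (1.79 by another probe set). Bcl2, Bcl2a1, Bcl2l2 and Bcl2l10 were on the array but below the filter. Of the 10 death and mitochondrial genes, 0 were 2-fold apart and the median was 0.01 (0.44 as deposited, with 1 gene, Diablo, higher). Without the filter on dim probe sets, 2 of that list were lower. The furthest from 0 was Bok, a BAX-like gene, at -0.85, at 95.1 with saline and 71.5 with 3-NP, and another probe set of it gave -0.16. At day 3 the BH3-only gene Bbc3, which encodes PUMA, was at 0.35, and Bcl2l2, a survival gene, had 174 with saline and 187 with 3-NP.

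Of 10 measured death receptor, ligand and adaptor genes at day 1, 3 were higher and 1 lower, with a median of 0.34. Ripk3, the kinase gene of necroptosis, had 10.0 with saline, under the floor, and 217 with 3-NP, at least 9.35-fold higher relative to the median gene. On the log2 scale that bound was 3.23, and 2.50 with a floor at the 40th percentile. Tnfrsf1a, which encodes the main TNF receptor, had 117 and 660, a log2 ratio of 2.05. Ngfr, the neurotrophin receptor gene, had 14.7 with saline, under the floor, and 88.8 with 3-NP, at least 3.82-fold higher. That bound, 1.93 on the log2 scale, was 1.21 with a floor at the 40th percentile. The lower gene, Tnfrsf11b, encodes the decoy receptor osteoprotegerin and had 1713 with saline and 791 with 3-NP (-1.55), named here after its values were seen. The genes of the Fas ligand, Faslg, and of Tnf were on the array but below the filter.

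At day 3 this list had 9 measured genes, 2 of them higher and 0 lower, with a median of 0.72. The costimulatory ligand gene Tnfsf9 was at least 3.70-fold higher, at 4.65 with saline, under the floor, and 36.6 with 3-NP. Its bound ran from 1.34 to 2.74 on the log2 scale over the processing settings. Ripk2, an adaptor kinase gene of innate immunity, had 55.4 and 150 (1.34). Fadd and Cflar, which encode the adaptor that Fas recruits and its inhibitor FLIP, were at 0.66 and 0.75, under 2-fold, named here for their link to Fas.

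Among 8 measured caspase and inhibitor of apoptosis genes at day 1, the higher 2 were both inhibitors, and 0 were lower. Birc3 had 25.1 with saline and 138 with 3-NP, a log2 ratio of 2.02, and Birc2 had 141 and 423, a log2 ratio of 1.15. The products of both are ubiquitin ligases that bind TRAF2 and restrain death receptor signalling. The 5 measured caspase genes lay between -0.38 (Casp9) and 0.15 (Casp12), or between 0.06 and 0.59 as deposited, and the list median was 0.11. At day 3 Casp8ap2 alone was measured, at 0.27 by its brightest probe set and -0.31 by another.

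The list of p53 regulators and targets, in which Cdkn1a, Gadd45a, Bax and Fas would belong as well, had 15 further measured genes at day 1. Of these 4 were higher, 2 lower and the median was 0.31. Gdf15, a secreted stress cytokine gene, had 23.2 with saline and 318 with 3-NP, a log2 ratio of 3.34. Sfn, which encodes 14-3-3 sigma, had 25.4 and 203 (2.56), and the early response gene Ier3 had 337 and 2390 (2.39). Mdm2, whose product degrades p53, was at 1.59 (0.96 for a dimmer probe set). The lower genes were Ccng2 (-1.17) and Sesn1 (-1.13), both under 2-fold as deposited (-0.73 and -0.69), and these and Mdm2 were named after their values were seen.

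At day 3 the list had 8 measured genes, with 3 higher, 0 lower and a median of 0.43. The nuclease gene Aen had 33.0 with saline and 120 with 3-NP (1.77, and 0.54 by another probe set). Tp53inp1 was at least 3.15-fold higher, at 5.01 with saline, under the floor, and 31.2 with 3-NP, with a bound between 1.10 and 2.51 on the log2 scale over the same settings. The stress-responsive sestrin gene Sesn2 was at 1.38, and 0.30 by another probe set. Mdm2 had 171 and 314 at day 3, a log2 ratio of 0.77, and Sesn1 was at -0.39, each on the same side as at day 1 by other probe sets.

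In the list of CDK inhibitors and G1 machinery, genes lay on both sides of the median gene at day 1, 2 of 10 higher and 2 lower, with a median of -0.07 (0.36 as deposited). Cdkn1c, which encodes the p21 relative p57, stood opposite to Cdkn1a, at 1998 with saline and 856 with 3-NP (-1.66). Rbl2, a retinoblastoma family gene, had 176 and 65.9 (-1.86). The transcription factor gene E2f5 had 37.0 and 108 (1.11). Pcna, which encodes the clamp that p21 and GADD45 proteins bind, had 278 and 755 (1.01), and was named after its values were seen. Cdkn1b, the p27 gene and the third of that inhibitor family, was at -0.15 (0.28 as deposited), and at 0.21 by another probe set, so its direction is not settled. At day 3, 0 of 5 measured genes were 2-fold apart, with Cdkn2c furthest from 0, at -0.90.

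The list of the MAP kinase arm linked to GADD45 proteins also holds genes of its regulators and substrates. Of its 8 measured genes at day 1, 2 were higher and 1 lower, or 4 and 1 as deposited, with a median of 0.57. Map2k6, a kinase gene upstream of p38, had 484 with saline and 151 with 3-NP (-2.12). Dusp1, which encodes a phosphatase that switches off p38 and JNK, had 151 and 648 (1.66, and 1.92 by another probe set), and the p38 substrate gene Mapkapk2 had 110 and 357 (1.26). At day 3, 0 of 4 measured genes were 2-fold apart. Mapk8, the JNK1 gene, lay furthest from 0, at 0.47, and Map3k4, whose product GADD45 proteins bind, was at -0.43. Map3k4 was not measured at day 1.

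Markers of other cells differed between the same arrays. At day 1, Lgals3 (2.47) and Cd14 (1.54) were the higher 2 of 8 measured macrophage markers, and 0 were lower. Their summed signal, not centred, was 1635 with saline and 3272 with 3-NP, and Ptprc, Itgam, Aif1, Tyrobp, Cx3cr1 and Fcgr2b were below the filter. Of 3 neutrophil markers, Lcn2 alone was higher (3.66), at 122 with saline and 2093 with 3-NP, while S100a8 was at -0.65 and S100a9 at 0.34. Of 5 endothelial and mural markers 3 were higher and 1 lower (sum 278 and 677), with Mcam and Plvap under the floor in saline. The T cell gene Cd3e was under the floor in saline and at 22.3 with 3-NP, and Cd3g, the only measured lymphocyte marker, was at -0.98. Of 12 fibrocyte markers 2 were higher and 5 lower (sum 16734 and 12795). Of 6 stria markers 5 were lower (sum 3188 and 1532), with Kcne1 present at 1006 in saline although a label field excludes the stria, and of 10 bone and cartilage markers 8 were lower (sum 2408 and 1152). Of 9 neuron and Schwann cell markers, Prph (1.54), Egr2 (1.53, and -0.11 by another probe set) and Tubb3 (1.34) were higher and Sncg (-1.64) lower (sum 6755 and 8922). None of 5 skeletal muscle markers (sum 1106 and 1761) or 2 erythrocyte markers (sum 3819 and 7495) was 2-fold apart relative to the median gene. As deposited, 2 of the muscle markers and 1 of the erythrocyte markers were higher. As deposited, 3 fibrocyte, 3 stria and 5 bone and cartilage markers were lower. Of the markers counted as higher at day 1, Cd14, Plvap, Mcam, Prph, Tubb3 and the fibrocyte marker Slc4a4 were measured only through their 3-NP signals. Of those counted as lower, Rgs5, Ibsp, Omd, Acan and Phex were measured only through their saline signals, and Phex was under the floor with 3-NP. At day 3, 4 of 5 stria markers were lower and 1 higher (sum 3520 and 1656), and both measured macrophage markers, Mrc1 (-1.08) and Cd163 (-1.07), were lower, but under 2-fold as deposited. Of these day 3 markers, Tyrp1, the higher stria marker, was measured only through its 3-NP signal, and Bsnd and Cd163 only through their saline signals. The fibrocyte gene Gjb2 had 1393 with saline and 947 with 3-NP at day 1, and Coch had 6548 and 5677 at day 3. A listed fibrocyte marker was thus read in each array, but single genes cannot establish which tissue was dissected. The signal ratio of the 3′ to the 5′ control probe sets was between 2.53 and 3.22 for Actb and between 1.17 and 1.46 for Gapdh over the 4 arrays. The part of these differences in the values of the members was not tested.

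**Figure D4:**
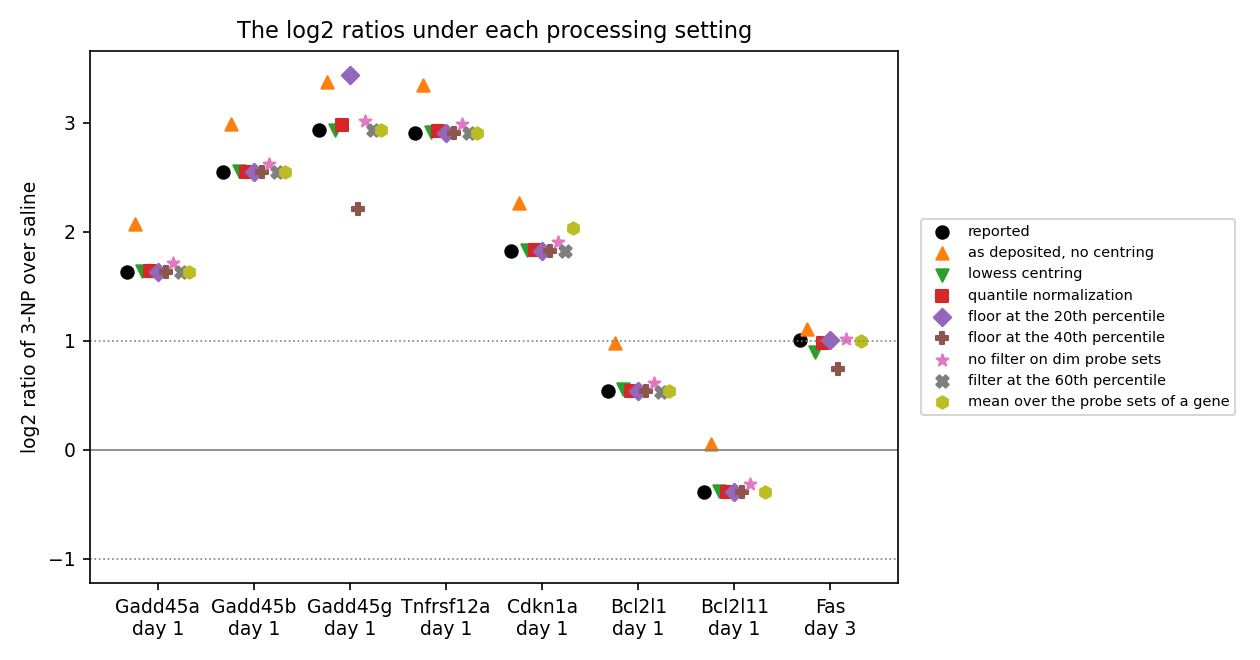
Log2 ratio of 3-NP over saline for each measured member under the reported setting (black circles) and 8 alternatives, with 1 symbol per setting and dotted lines at 2-fold. The symbols of Gadd45a, Gadd45b, Gadd45g, Tnfrsf12a and Cdkn1a stay above the upper mark, from 1.63 for Gadd45a upward, and those of Fas at day 3 fall on both sides of it.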

How the data were processed

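Gene expression was measured on 4 Affymetrix arrays, 1 per group, from biotin-labelled cRNA, per the labels' protocols. The authors computed 1 linear signal intensity for each probe set with MAS5, as the submitters' processing notes state, and deposited these values. Their scaling target, detection calls and genome build: not given in the sources used here.

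Probe sets took their names from the array's annotation, brought up to date by gene identifier with RefSeq (GRCr8). At day 1, 12783 of 15866 probe sets had 1 symbol, 312 several and 2771 none, and at day 3, 7564, 100 and 7612 of 15276. In each array, signals below the 30th percentile were raised to that value. Each gene was represented by its brightest probe set reaching the 50th percentile in at least 1 array. The median log2 ratio, 0.44 at day 1 and 0.10 at day 3, was subtracted, so ratios assume an equal median gene. Median signals were 44.9 and 60.7 at day 1, and 18.7 and 20.0 at day 3.

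The members and lists were chosen with earlier results of these data known. Named genes were all members and, per list and day, up to 3 genes at least 2-fold apart, or the 1 furthest from 0 where there was none. Tnfsf12, Tnfrsf11b, Diablo, Fadd, Cflar, Mdm2, Ccng2, Sesn1, Pcna, Cdkn1b, Map3k4, the caspases at either end of their range and Mapk8 at day 1 were named outside this rule, with their values known. Calculations used Python 3.11.15, pandas 2.3.3 and statsmodels 0.14.6, and were tested on simulated data. The number of arrays limits the precision. Promoter sequences were from RefSeq (GRCr8) and matched 8 of 9 members.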

Additional observations from a re-analysis of the deposited data

Results flagged for a closer look

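Mapk8, the JNK1 gene, was the 1 gene among those of the lists measured on both days that lay on opposite sides of the median gene, at -0.42 on day 1 and 0.47 on day 3, by different probe sets. At day 1 it read 59.8 with saline and 60.5 with 3-NP, and at day 3 it read 51.1 with saline and 75.8 with 3-NP. Another Mapk8 probe set gave 0.24 at day 3, and 1 more was under the floor in both arrays. The SD between probe sets was 0.35 at day 1 and 0.47 at day 3, near the size of these values. The only other list genes measured on both days were Htra2, Mdm2, Ripk1, Sesn1 and Tnfrsf21. The difference between the days was not tested, and as deposited the day 1 value of Mapk8 was 0.02.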

How the results depend on the processing

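Of 50 values by gene and day given for members and pathway genes, 31 were at least 2-fold apart, and 28 of these stayed so under every one of 8 alternatives that gave them a value. The exceptions were Fas at day 3 and, as deposited, Ccng2 (-0.73) and Sesn1 (-0.69) at day 1, and 0 of the 31 changed sign. The 5 higher members of day 1 were counted as 5 under each alternative, with 0 lower. Their median over the measured members, 1.83, was 2.27 as deposited and 2.18 with the filter at the 60th percentile, where Bcl2l11 dropped out and 6 members remained. At day 3 the count of higher members, 1, was 0 after lowess centring, 0 after quantile normalization, 0 with a floor at the 40th percentile, 0 with the mean over probe sets and 0 with the filter at the 60th percentile, where Fas itself was not measured. Summed over the pathway lists, the counts stayed within 1.5 times, at 13 to 19 higher and 4 to 8 lower on day 1. Of 28 counts for single lists, 4 moved further, all at day 1. As deposited, the MAP kinase list had 4 higher instead of 2 and the p53 list 0 lower instead of 2. The BCL2 death genes had 1 higher instead of 0 as deposited, and 2 lower instead of 0 without the filter. No paired analysis was possible because each group has 1 array, and for the same reason no replicate could be left out. Dim signals limit Fas, Bcl2l11 and the dimmer probe sets of Bcl2l1, and turn Gadd45g into a bound.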
